A study of Mus musculus with 6 samples.

Results

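The 34 genes described here encode heat shock proteins of the cytosol and mitochondria (15 genes) and chaperones, folding enzymes and stress-response proteins of the endoplasmic reticulum (19 genes). They were chosen by name for their function, with earlier results of these data known. Each symbol matched 1 of the 56980 Ensembl gene identifiers in the count table. RNA came from mouse lung tumours labelled as small cell lung cancer in a model called QKO, taken about 4 months after the virus injection. Groups were 3 control tumours (QKO alone) and 3 tumours that were QKO with Keap1 knocked out, and the comparison asks what Keap1 loss does to RNA levels. The labels do not give which alleles QKO stands for, how Keap1 was inactivated and how old the animals were. They also do not state that each sample is its own animal, so the p-values cover the spread between these samples only, which may not be that between animals.

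Chaperones bind unfolded protein and keep it from clumping while it folds. In the cytosol the HSP70 and HSP90 machines do most of this work, and under heat or oxidative stress the transcription factor HSF1 raises their genes through heat shock elements. In the endoplasmic reticulum, BiP (gene Hspa5), GRP94 (Hsp90b1), the lectin chaperones and the disulfide isomerases fold secreted and membrane proteins, and when they are overrun the unfolded protein response raises their genes through the sensors IRE1, PERK and ATF6. KEAP1 controls another stress programme, that of NRF2, which drives genes of detoxification and redox balance.

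Libraries held 18731515 to 23759892 counted reads, and all 34 genes passed the filter on low counts. Levels are given as CPM, reads per 1000000 after TMM scaling of each library's total. Keap1 RNA was at 78.4, 74.5 and 58.7 CPM in controls 1 to 3 against 67.5, 93.0 and 79.9 CPM in knockouts 1 to 3, so its level does not check the genotype. Nqo1, a common readout of NRF2 activity, ran from 3.58 to 49.6 CPM in controls and from 864 to 1324 CPM in knockouts. The controls differed in RNA of cell type markers. Summed CPM of 8 neuroendocrine markers was 4769 in control 3 and 54.5 to 214 in the knockouts, with controls 1 and 2 at 107 and 72.7, so the defining markers of small cell lung cancer were scarce in 5 of 6 libraries. Squamous markers (6 genes) summed to 7197 CPM in control 1 and at most 62.8 elsewhere, and fibroblast and matrix markers (6 genes) to 33869 CPM in control 2 and at most 4938 elsewhere. Most of the control 2 sum was Col1a1 and Col1a2 (20424 and 12074 CPM). Pdgfra and Lum were also highest in control 2. Col3a1 and Dcn were highest in control 3 (2291 and 238 CPM, against 998 and 57.1 CPM in control 2). Markers of alveolar type II cells (5 of 5 with reads) summed to 171 to 973 CPM in controls against 1364 to 3916 CPM in knockouts. Those of club and ciliated cells (4 of 4) summed to 177 to 1433 against 1813 to 5779 CPM, with the groups apart for both sums. Single markers differed from these sums: in the alveolar list only Sftpb had groups apart, and Sftpc, Sftpa1, Lamp3 and Abca3 overlapped. Scgb1a1 made up most of the club and ciliated sum and was higher in all knockouts, as was Scgb3a2, while the ciliated marker Foxj1 was lower in all knockouts (18.9 to 29.8 CPM in controls, 11.3 to 18.0 CPM in knockouts) and Tppp3 overlapped. The part of these marker differences in the results on chaperones was not tested. In bulk tumour RNA fewer cells of a type and less RNA per cell cannot be told apart.

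Calr3, a calreticulin relative of the endoplasmic reticulum, and Hspe1, the mitochondrial HSP10, rose in the Keap1 knockout tumours, and no other of the 34 genes passed. By edgeR's quasi-likelihood test at a Benjamini-Hochberg adjusted p below 0.05, 2 of 34 were higher and 0 lower, against 2.42% and 1.89% of all 17901 genes tested (4.31% in either direction). At an unadjusted p below 0.05 there were 9 higher and 1 lower (Dnajc3), against 13.8% and 16.9% of all genes (30.7% in either direction). DESeq2 called 6 higher and 0 lower, when it called 11.8% of all genes higher and 14.8% lower (26.6% together). Its shares, here and below, are of the 17442 genes to which it gave an adjusted p, and it gave none to Hspb1. Limma voom called 3 higher and 0 lower, against 3.31% and 1.82% (5.13% together).

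Every knockout library exceeded every control library in 7 of 15 heat shock genes and in 3 of 19 endoplasmic reticulum genes, against 21.5% of all genes. In 1 gene of each list, Hspa4 and Hspa5, all knockouts lay below all controls, against 19.1% of all genes, so 12 of 34 had groups apart where 40.7% of all genes did. The median log2 fold change was 0.27 for the heat shock genes, 0.03 for the endoplasmic reticulum genes and -0.08 for all genes tested. Whether the lists differ from each other was not tested.

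**Figure D1:**
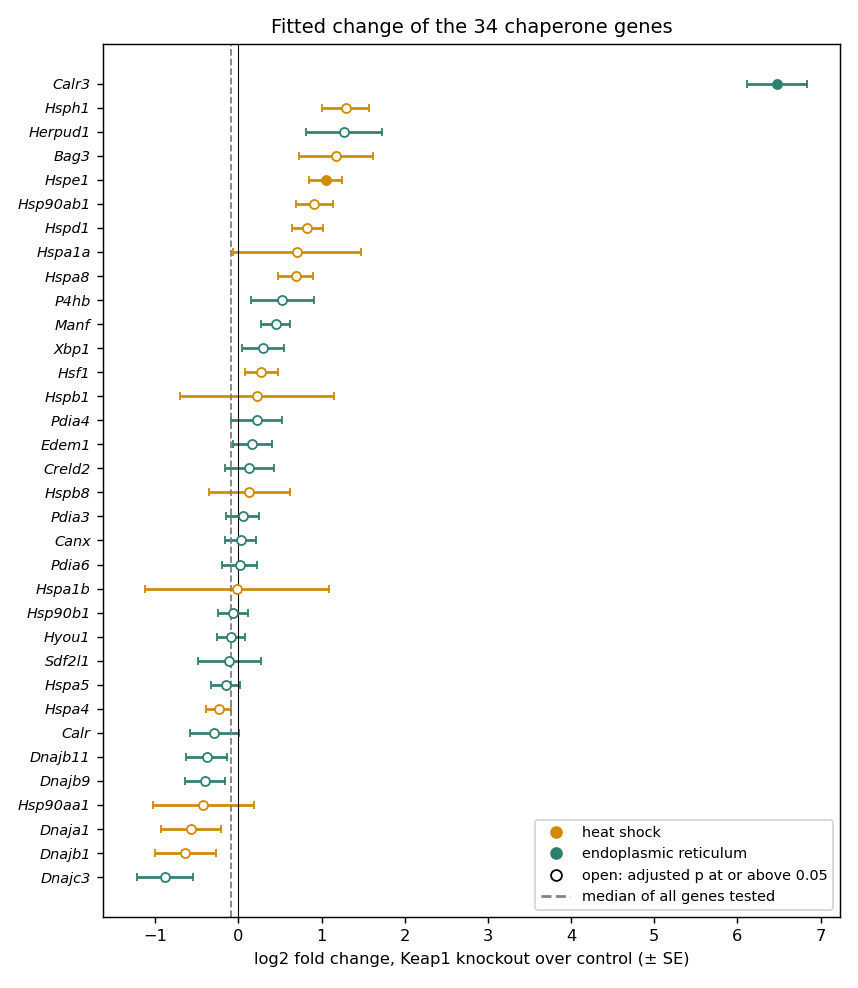
Log2 fold change of each of the 34 genes, Keap1 knockout over control, with its standard error as bars (3 libraries per group), filled where the adjusted p was below 0.05. Calr3 at 6.47 stands far above the other genes, which lie between -0.89 and 1.29, and the dashed line marks the median of all genes tested at -0.08.

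The controls were more variable than the knockouts. The standard deviation of log2 CPM was larger among controls in 31 of the 34 genes (91.2%) and in 83.5% of all genes. Control 3, the library rich in neuroendocrine transcripts, was the lowest of the 6 libraries in 18 of the 34. That count was not made over all genes, so it cannot be read as a trait of these genes. Without control 3, edgeR called 7 of the 34 higher (Hsph1, Hsp90ab1, Bag3, Hspd1, Hspe1, Calr3 and Manf) and 1 lower (Dnajc3), against 8.4% and 8.8% of all genes (17.2% together). Leaving out control 1 gave 3 higher (Hspb1, Calr3 and Herpud1) and 0 lower, against 1.9% and 2% of all genes (3.91% together). Leaving out control 2 gave 1 higher (Calr3) and 0 lower, against 0.773% and 0.642% (1.42% together). Without knockout 1, edgeR called 2 genes in the whole table, 1 of them Calr3. Without knockout 2 or 3 it called no gene at all, with 3372 and 3321 genes, 7 and 5 of them among the 34, at an unadjusted p below 0.05.

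**Figure D2:**
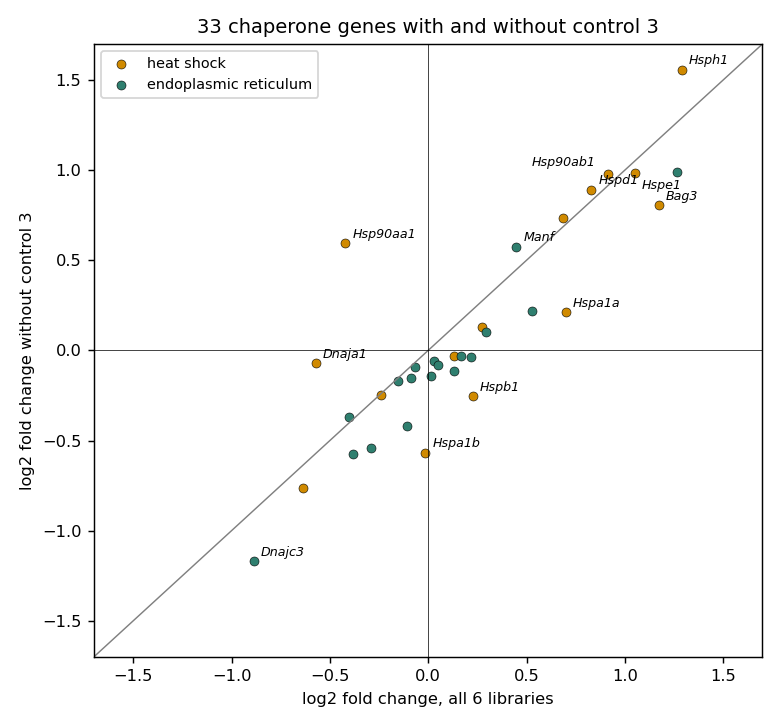
Log2 fold change with all 6 libraries (horizontal axis) against the value without control 3 (vertical axis) for 33 of the 34 genes, Calr3 (6.47 and 6.53) being off the scale, with the grey line marking equal values. Hsp90aa1 lies far from that line, going from -0.42 to 0.60.

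Hspa8, Hsp90ab1 and Hsph1 had higher values in every knockout library but did not pass by edgeR with all 6 libraries, while Hspa4 was lower in every knockout and also did not pass. Hspa8 encodes HSC70, the HSP70 of unstressed cells, and measured 804, 1074 and 1036 CPM in controls 1 to 3 against 1669, 1479.6 and 1541 CPM in knockouts 1 to 3. Its lowest knockout lay above its highest control, a log2 fold change of 0.69 ± 0.21 (SE), and the adjusted p was 0.10 by edgeR and 0.00729 by DESeq2. Hsp90ab1, the constitutive cytosolic HSP90, measured 1155, 849 and 1142 CPM in controls against 2024, 1959 and 1939 CPM in knockouts. The knockouts lay close together and above all controls (log2 fold change 0.91 ± 0.22, SE), with adjusted p 0.0667 by edgeR, 0.0466 by limma voom and 3.10e-04 by DESeq2. Hsph1 encodes HSP110, which exchanges the nucleotide on HSP70, and measured 26.0, 28.2 and 43.6 CPM in controls against 71.5, 101 and 66.9 CPM in knockouts. Its groups were also apart, with a fold of 2.44 (log2 1.29 ± 0.29, SE) and adjusted p 0.0594 by edgeR and 0.00259 by DESeq2. For Hspa4, another HSP110-type exchange factor, controls averaged 204 ± 3.09 CPM and knockouts 173 ± 12.6 CPM (SD, n = 3). All its knockouts were lower, by a step that did not pass (log2 -0.24 ± 0.15, SE, edgeR adjusted p 0.328).

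The inducible HSP70 genes were spread widely among controls and narrowly among knockouts. Hspa1b measured 404, 79.6 and 10.0 CPM in controls 1 to 3, a 40.3-fold range, against 153, 142 and 193 CPM in knockouts 1 to 3. The knockouts fell inside the span of the controls, and the log2 fold change was -0.01 ± 1.11 (SE). Hspa1a, its near-identical neighbour, ran in the same order among controls, at 39.7, 15.6 and 3.73 CPM, against 29.2, 29.0 and 37.6 CPM in knockouts (log2 0.70 ± 0.77, SE). How reads were shared between the copies is uncertain, so their counts were also summed, a choice made after the data were seen. The sum was 443, 95.1 and 13.7 CPM in controls against 183, 171 and 230.5 CPM in knockouts (log2 0.08 ± 1.06, SE). The sign for Hspa1b therefore turned with the summing, and without control 1, its highest library, the value was 1.87. Control 1 is rich in squamous and control 3 in neuroendocrine transcripts, and their part in these levels was not tested.

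Other stress-inducible members also depended on single control libraries. Hsp90aa1, the inducible HSP90, measured 309.6, 378 and 1399 CPM in controls against 482, 455 and 621 CPM in knockouts. Control 3 alone lay above the knockouts, and the log2 fold change of -0.42 ± 0.61 (SE) became 0.60 without that library (edgeR adjusted p 0.664 and 0.0986). Hspb1, a small heat shock protein that holds unfolding proteins, measured 137, 17.5 and 11.3 CPM in controls against 68.4, 62.0 and 63.6 CPM in knockouts. Control 1 lay above and controls 2 and 3 below the knockouts (log2 0.23 ± 0.93, SE). Without control 1 Hspb1 was called higher (2.17, edgeR adjusted p 0.0376), and without control 2 or 3 the sign turned (-0.19 and -0.26). Hspb8, the small heat shock protein that works with BAG3, ranged from 32.5 to 117 CPM in controls and from 62.4 to 91.6 CPM in knockouts, and its groups overlapped (log2 0.13 ± 0.49, SE).

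**Figure D3:**
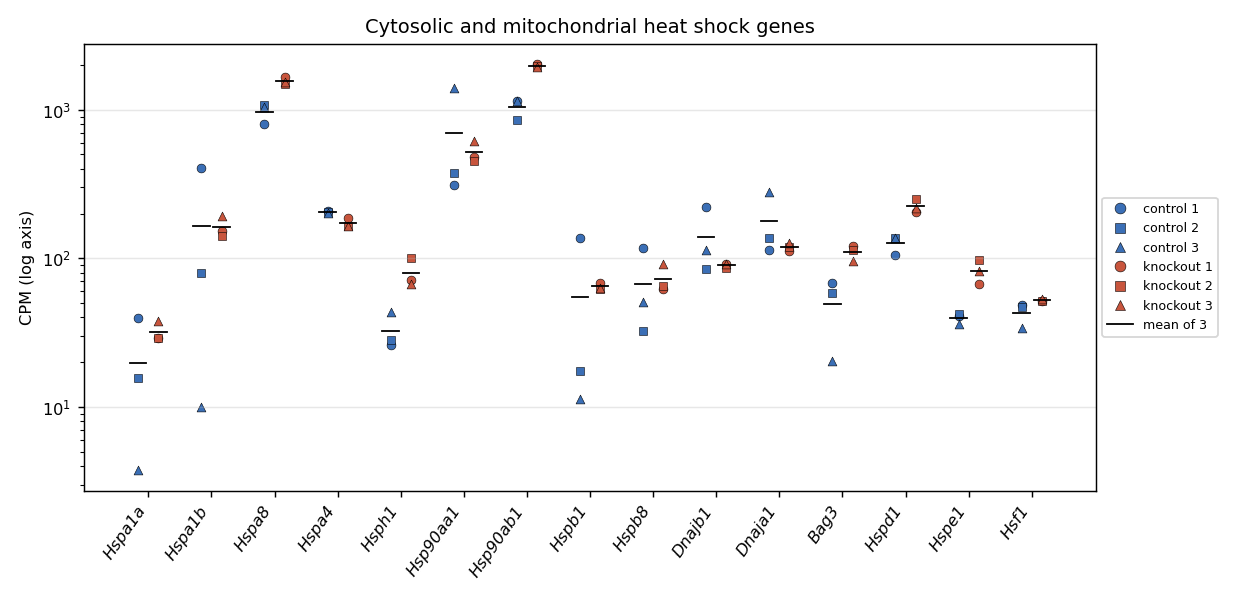
CPM on a log axis of the 15 heat shock genes in each library (blue controls, red knockouts, marker shape for the library number, black bar for the mean of 3). Hspa8, Hsp90ab1, Hsph1, Bag3, Hspd1, Hspe1 and Hsf1 have all 3 knockouts above all 3 controls, while Hspa1b spans 10.0 to 404 CPM among controls alone.

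The co-chaperones gave values of both signs. Bag3, which couples HSP70 to selective autophagy, measured 68.3, 58.4 and 20.4 CPM in controls against 122, 114 and 95.8 CPM in knockouts. All knockouts lay above all controls (log2 1.17 ± 0.45, SE, edgeR adjusted p 0.144), and without control 3, its lowest library, the value passed at 0.81 (0.0341). The J-domain proteins hand clients to HSP70. Dnajb1 measured 221, 84.8 and 114 CPM in controls against 91.8, 86.0 and 91.8 CPM in knockouts, and Dnaja1 measured 114, 137 and 281 against 111, 119 and 128 CPM. Each had 1 control library far above the rest, control 1 for Dnajb1 and control 3 for Dnaja1, and log2 fold changes of -0.64 ± 0.36 and -0.57 ± 0.36 (SE) that did not pass. Hsf1 itself averaged 43.2 ± 8.13 CPM over the controls and 52.2 ± 0.843 CPM over the knockouts (SD, n = 3). Every knockout lay above every control, but the difference did not pass (log2 0.27 ± 0.20, SE, edgeR adjusted p 0.386).

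Both genes of the mitochondrial chaperonin were higher in all knockouts. Hspe1 (ENSMUSG00000073676), the HSP10 lid of the folding chamber, measured 40.8, 42.5 and 36.1 CPM in controls 1 to 3 against 66.9, 97.8 and 82.5 CPM in knockouts 1 to 3. It rose 2.07-fold (log2 1.05 ± 0.20, SE, edgeR adjusted p 0.0473), with no overlap between groups. That call ended without the filter on low counts (adjusted p 0.0722 by edgeR), without control 1 (0.0651) or control 2 (0.0719), and without knockout 1, 2 or 3 (0.140, 0.236 and 0.223), while the log2 value stayed within 0.92 to 1.20 with any 1 library left out. Hspd1, the HSP60 that forms the chamber, measured 105, 137 and 137 CPM in controls against 205, 251 and 217 CPM in knockouts. Its groups were apart (log2 0.83 ± 0.19, SE), with adjusted p 0.0613 by edgeR, 0.0554 by limma voom and 0.00204 by DESeq2. The genes lie head to head with exons that overlap on opposite strands, and the strand setting of the counting is not known, so reads from the shared bases cannot be told apart.

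The sequence between these starts is shown because it carries a heat shock element beside the member called by edgeR. The search covered 250 bases before to 50 after each RefSeq start (build GRCm38.p6, 28 of the 34 genes matched) for 3 alternating units, read as GAA, NN, TTC, NN, GAA or as TTC, NN, GAA, NN, TTC, on both strands. Of 11 heat shock genes with such a window 3 had a match, namely Hspe1, Hspd1 and Hsph1, and 0 of 17 endoplasmic reticulum genes did, against 0.603% of all 32851 windows. The lines for Hspe1 and Hspd1 are the same bases read from each gene's strand (chr1:55088053-55088082, plus strand for Hspe1 and minus strand for Hspd1), in an annotated untranslated exon of Hspd1. The Hsph1 match (chr5:149636280-149636308, minus strand) begins 16 bases after one of its starts, in its own untranslated exon. Capitals mark the element.
Hspe1: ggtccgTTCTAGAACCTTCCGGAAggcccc
Hspd1: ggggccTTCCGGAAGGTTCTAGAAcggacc
Hsph1: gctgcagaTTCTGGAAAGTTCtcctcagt
These 3 genes had log2 fold changes of 0.83 to 1.29, and the 8 heat shock genes with a window and no match ran from -0.64 to 1.17 with a median of 0.06. Windows of Hspa8, Hsp90aa1, Hsp90ab1, Hsf1, Hyou1 and Manf were not used here. A match is a run of letters, not a measured binding site. This search and the later ones took exact runs only, so a gene without a match may still hold an element spelled otherwise. Whether the element bears on the fold changes was not tested.

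In the endoplasmic reticulum, Calr3 had the highest fold change of all members. Calr3 (ENSMUSG00000019732) encodes a calreticulin relative known mainly from the testis, where it helps fold sperm proteins. It measured 1.17, 1.34 and 1.39 CPM in controls 1 to 3 (78 reads in all) against 72.8, 138 and 137 CPM in knockouts 1 to 3 (7697 reads). All controls were near the bottom of the scale, and knockout 1 was lower than the other knockouts. Calr3 rose 88.8-fold (log2 6.47 ± 0.36, SE, edgeR adjusted p 0.00887). The call held without control 1, 2 or 3 and without knockout 1 (edgeR adjusted p 0.0265, 0.0285, 0.00687 and 0.0186). It ended without knockout 2 (0.125) or knockout 3 (0.102), when edgeR called no gene in the table.

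The genes next to Calr3 and its relatives gave smaller values. The nearest protein-coding genes by RefSeq's order, looked at after the Calr3 values were seen, are Klf2, Eps15l1, 1700030K09Rik and Cherp. Their log2 fold changes were 0.42, 0.22, 0.85 and -0.00, with adjusted p 0.571, 0.413, 0.193 and 0.993 by edgeR. Every knockout lay above every control for Eps15l1 and 1700030K09Rik, as in 21.5% of all genes, and Klf2 and Cherp overlapped. Controls and knockouts averaged 51.9 and 60.3 CPM for Eps15l1, and 7.29 and 13.1 CPM for 1700030K09Rik. Calr, the ubiquitous calreticulin, a lectin chaperone that also stores calcium, measured 536, 551 and 281 CPM in controls against 382, 391 and 348 CPM in knockouts. Control 3 lay below and controls 1 and 2 above all knockouts (log2 -0.29 ± 0.30, SE). Canx (calnexin), the membrane-bound lectin chaperone, averaged 349.7 ± 42.1 CPM over the controls and 356 ± 25.3 CPM over the knockouts (SD, n = 3). Per kilobase of exon (GENCODE M21 lengths), mean Calr3 was at 0.662 CPM in controls, the lowest level of the 34 genes, and at 59.1 CPM in knockouts, where Calr was at 129.6 and Canx at 76.0 CPM per kilobase.

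**Figure D4:**
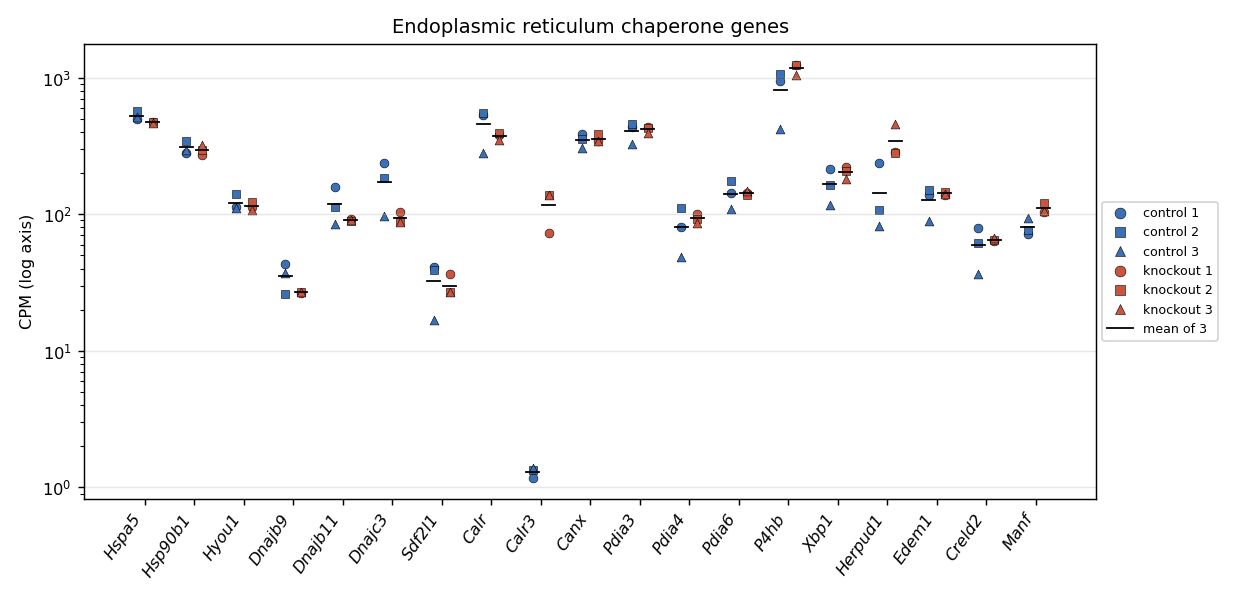
CPM on a log axis of the 19 endoplasmic reticulum genes in each library (blue controls, red knockouts, marker shape for the library number, black bar for the mean of 3). Calr3 goes from 1.17 to 1.39 CPM in controls to 72.8 to 138 CPM in knockouts. Control 3 is the lowest library in 12 of the 18 other genes, a count not made over all genes.

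Of the 18 endoplasmic reticulum genes other than Calr3, edgeR, DESeq2 and limma voom called 0, against 4.31%, 26.6% and 5.13% of all genes. At an unadjusted p below 0.05 by edgeR 2 were higher and 1 lower (16.7%, against 30.7% of all genes). Their median log2 fold change was 0.02, against -0.08 for all genes tested. Within 0.5 of 0 lay 15 of the 18, and 7398 of all 17901 genes. Hspa5 (BiP), the HSP70 of the compartment and a common readout of the unfolded protein response, measured 494, 572 and 511 CPM in controls against 476, 477 and 467 CPM in knockouts. Every knockout was lower than every control, by a small step that did not pass (log2 -0.15 ± 0.17, SE, edgeR adjusted p 0.578). Hsp90b1 (GRP94), the HSP90 of the compartment, averaged 309 ± 33.4 CPM over the controls and 295 ± 23.9 CPM over the knockouts. Hyou1, its HSP110, averaged 122 ± 17.4 and 114 ± 7.71 CPM (SD, n = 3), and both genes overlapped between groups.

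Dnajc3, Dnajb11, Dnajb9 and Sdf2l1, which work with BiP, had negative values that did not pass. Dnajc3 (p58IPK), a J-domain partner, measured 237, 184 and 97.7 CPM in controls against 103, 89.6 and 88.3 CPM in knockouts. Control 3 overlapped the knockouts (log2 -0.89 ± 0.34, SE, edgeR adjusted p 0.142), and without it the gene passed at -1.17 (0.0180). Dnajb11 and Dnajb9, also J-domain partners, had log2 fold changes of -0.38 ± 0.25 and -0.40 ± 0.24 (SE). Dnajb9 ranged from 26.2 to 43.0 CPM in controls and from 26.3 to 27.1 CPM in knockouts, so knockouts sat at the low end of the controls. Sdf2l1, a partner of Dnajb11, ranged from 16.9 to 40.9 and from 26.8 to 36.4 CPM (log2 -0.11 ± 0.38, SE).

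Disulfide isomerases make and shuffle disulfide bonds in secreted proteins, and none of the 4 among the 34 genes passed. P4hb (protein disulfide isomerase) measured 947, 1068 and 419 CPM in controls against 1245, 1231 and 1037 CPM in knockouts, with control 2 above knockout 3 only. Its log2 fold change was 0.53 ± 0.38 (SE), 0.22 without control 3 and 0.80 without control 2. The other isomerases were at 0.05 ± 0.20 for Pdia3, 0.22 ± 0.31 for Pdia4 and 0.02 ± 0.21 for Pdia6 (log2 fold change, SE), and the signs of all 3 turned without control 3 (-0.08, -0.04 and -0.14). Control 3 was the lowest library for all 4 isomerases.

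Herpud1, Manf, Xbp1, Creld2 and Edem1, stress-response genes outside folding itself, had positive values that did not pass. Herpud1, a membrane protein that organises degradation of misfolded protein, measured 238, 107 and 81.7 CPM in controls against 287, 282 and 456 CPM in knockouts. All knockouts lay above all controls (log2 1.27 ± 0.46, SE, edgeR adjusted p 0.132), and without control 1, its highest control, the value was 1.86 (0.0499). Manf, a protein secreted under endoplasmic reticulum stress, measured 71.9, 76.2 and 94.4 CPM in controls against 105, 119.8 and 106 CPM in knockouts. Its groups were apart (log2 0.45 ± 0.18, SE), with adjusted p 0.150 by edgeR, or 0.0426 without control 3. Xbp1, the transcription factor activated by IRE1 through splicing, averaged 165 ± 48.1 CPM over the controls and 203 ± 19.7 CPM over the knockouts (SD, n = 3), and counts per gene do not tell its spliced from its unspliced form. Creld2, a secreted stress protein, and Edem1, which steers misfolded glycoproteins to degradation, had log2 fold changes of 0.13 ± 0.29 and 0.17 ± 0.23 (SE).

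The same windows were searched for the endoplasmic reticulum stress element, CCAAT, then 9 bases of any kind, then CCACG, on both strands, to which ATF6 binds together with NF-Y. It was found in 7 of 17 endoplasmic reticulum genes with a window and in 0 of 11 heat shock genes, against 0.119% of all windows. Here and for the other elements, members were counted by gene (28 genes with 34 windows) and the background by window. The members were also chosen for their function, so the difference in share is not a result of these data and was not tested. The stretches are shown because this element links the folding genes to the unfolded protein response. The 7 genes with it ran from -0.89 (Dnajc3) to 0.13 (Creld2) in log2 fold change, with a median of -0.07 and none past the threshold, while the 10 genes without a match had a median of 0.19. Capitals mark the element, which reads CGTGG first where it lies on the opposite strand.
Hspa5: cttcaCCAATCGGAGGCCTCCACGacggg
Hsp90b1: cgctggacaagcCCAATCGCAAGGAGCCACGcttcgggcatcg
Hsp90b1: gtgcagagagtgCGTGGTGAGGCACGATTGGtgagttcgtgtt
Calr: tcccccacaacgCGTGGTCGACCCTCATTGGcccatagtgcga
Canx: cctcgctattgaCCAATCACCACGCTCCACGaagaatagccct
Pdia6: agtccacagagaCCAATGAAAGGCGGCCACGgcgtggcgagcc
Dnajc3: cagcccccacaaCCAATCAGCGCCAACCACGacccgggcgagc
Creld2: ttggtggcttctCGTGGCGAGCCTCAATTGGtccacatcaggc
In GRCm38.p6 they lie at chr2:34772020-34772048 (plus strand, Hspa5), chr10:86705626-86705668 and chr10:86705521-86705563 (minus, Hsp90b1), chr8:84847063-84847105 (minus, Calr) and chr11:50325788-50325830 (minus, Canx). The others are at chr12:17266479-17266521 (plus, Pdia6), chr14:118937815-118937857 (plus, Dnajc3) and chr15:88819508-88819550 (plus, Creld2). GENCODE M21 annotates an untranslated exon of Hspa5 at its stretch and no gene at the others. The core of the antioxidant response element that NRF2 binds, TGACNNNGC on both strands, is short and was present in 12.4% of all windows. It was found in 2 of 11 heat shock genes (Hsph1 and Dnajb1) and 5 of 17 endoplasmic reticulum genes (Calr3, Calr, Herpud1, Pdia3 and Sdf2l1). Median log2 fold changes were 0.05 in the 5 endoplasmic reticulum genes with it and 0.02 in the 12 without. Among heat shock genes they were 0.33 in the 2 with it and 0.23 in the 9 without. Whether NRF2 binds any of these matches was not tested. The Calr3 match is shown for the gene with the highest fold change (chr8:72435322-72435354, minus strand). Its first base is at -186 from the RefSeq start, and GENCODE M21 places it inside the gene and outside its exons.
Calr3: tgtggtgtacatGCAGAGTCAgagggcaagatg

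Beyond the 34 genes, 161 of 167 listed genes of the same pathways were tested. By edgeR 9 rose and 0 fell (5.59%, against 4.31% of all genes), with 35 higher and 17 lower at an unadjusted p below 0.05 (32.3%, against 30.7% of all genes). DESeq2 called 30 higher and 14 lower, against 11.8% and 14.8% of all genes, and limma voom 9 higher and 0 lower, against 3.31% and 1.82%. Without control 3 edgeR called 23 higher and 6 lower, against 8.4% and 8.8% of all genes. The cytosolic network gave 4 of the 9, out of 54 tested (median 0.22). Cryab, the small heat shock protein alpha B-crystallin, measured 15.6, 44.6 and 20.3 CPM in controls against 263, 209.9 and 217 CPM in knockouts, a 8.56-fold rise (log2 3.10 ± 0.44, SE, edgeR adjusted p 0.0340). Hspbp1, which exchanges the nucleotide on HSP70, rose from 30.4 ± 5.16 to 81.9 ± 11.6 CPM. Dnajb2, a J-domain protein, rose from 28.6 ± 5.73 to 64.3 ± 9.31 CPM, and Cdc37, which loads kinases onto HSP90, from 124 ± 18.4 to 236 ± 12.6 CPM (SD, n = 3). In these 4 genes every knockout lay above every control.

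All 11 other mitochondrial chaperone and protease genes had positive log2 fold changes, against 46.1% of all genes. They ran from 0.07 to 1.39 with a median of 0.42, against -0.08 for all genes. In 9 of the 11 every knockout lay above every control, against 21.5% of all genes. At an unadjusted p below 0.05 by edgeR 7 were higher and 0 lower (63.6%, against 30.7% of all genes). DESeq2 called 4 higher and 0 lower, against 11.8% and 14.8% of all genes. Timm44, which tethers the import motor, was the 1 that passed by edgeR (9.09%, against 4.31% of all genes). It measured 54.0, 52.0 and 50.2 CPM in controls against 91.8, 90.3 and 87.3 CPM in knockouts (log2 0.79 ± 0.14, SE, edgeR adjusted p 0.0436). Of 17 sensors and transcription factors of the unfolded protein response 0 passed by edgeR, with 3 higher and 2 lower at an unadjusted p below 0.05 (29.4%, near the 30.7% of all genes). DESeq2 called 3 higher and 1 lower there, against 11.8% and 14.8% of all genes, and limma voom 0. The smallest p there belonged to Creb3 (log2 0.77 ± 0.18, SE) and Atf4 (0.59 ± 0.19), with adjusted p 0.0603 and 0.107 by edgeR, and the median was -0.16.

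Of the other endoplasmic reticulum lists, edgeR called 5.26% in oxidative folding, 5% in degradation and 7.14% in translocation, near the 4.31% of all genes. DESeq2 called 2 higher and 4 lower in oxidative folding, 1 and 1 in degradation, and 4 and 3 in translocation. Of all genes it called 11.8% higher and 14.8% lower. Among 19 genes of oxidative folding with a median of -0.31, Pdia2, an isomerase best known from pancreas, rose from 0.416 ± 0.253 to 5.94 ± 0.111 CPM (SD, n = 3). Among 20 degradation genes (median 0.10), Derl3, a Derlin of that pathway, measured 5.43, 5.85 and 3.24 CPM in controls against 24.3, 20.1 and 30.5 CPM in knockouts (log2 2.37 ± 0.36, SE, edgeR adjusted p 0.0363). Derl3 is also one of 6 listed plasma cell markers, whose sum was 221 to 1327 CPM in controls against 611 to 684 CPM in knockouts. Most of that sum was Sdc1 (171 to 1219.8 CPM in controls, 389 to 482 CPM in knockouts), which epithelial cells also express. Of the others, Irf4 was at most 4.16 CPM, Tnfrsf17 and Mzb1 were at most 0.495 and 1.21 CPM in any library, and Jchain ran from 44.4 to 116 CPM in controls and from 145 to 261 CPM in knockouts. Jchain was thus higher in all knockouts, like Derl3, and the part of plasma cells in the Derl3 result was not tested. Among 28 translocation and other folding genes (median 0.14), Creld1, a relative of Creld2, rose from 21.4 ± 8.02 to 143 ± 1.85 CPM. Sil1, which exchanges the nucleotide on BiP, rose from 22.5 ± 6.05 to 57.9 ± 4.32 CPM (SD, n = 3). Among 12 glycoprotein folding genes edgeR and limma voom called 0, with 2 higher and 2 lower at an unadjusted p below 0.05 by edgeR (33.3%, near the 30.7% of all genes). DESeq2 called 2 higher and 3 lower, against 11.8% and 14.8% of all genes. Edem2 and Edem3, relatives of Edem1, had log2 fold changes of opposite sign there, 1.39 ± 0.33 and -1.13 ± 0.28 (SE), with adjusted p 0.0658 and 0.0706 by edgeR and the groups apart in both.

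**Figure D5:**
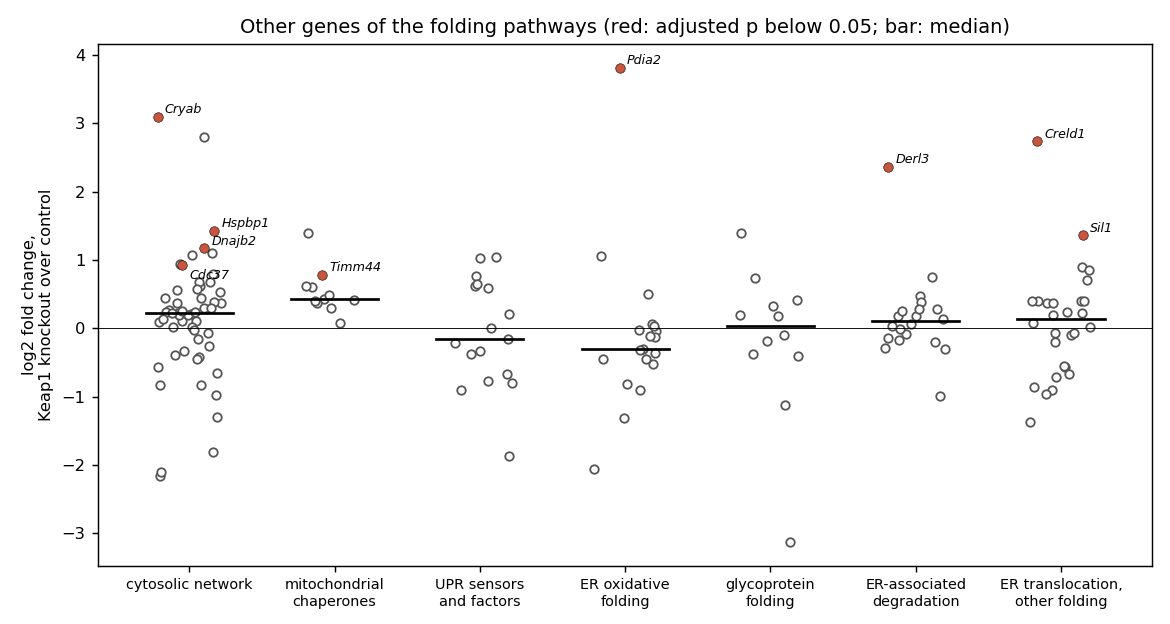
Log2 fold change, Keap1 knockout over control, of the 161 tested genes of 7 folding pathway lists, 1 point per gene, red where the adjusted p was below 0.05 and with a bar at each list's median. The 9 red genes all lie above 0, as does every gene of the mitochondrial list.

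Levels of the 34 genes per kilobase of exon had the same leaders in both groups. Hsp90ab1, P4hb and Hspa8 held the first 3 places, at 349.6, 284 and 226 CPM per kilobase in controls and 658, 409 and 364 in knockouts. Rank 4 went to Hsp90aa1 in controls (177, with control 3 far above the others) and to Herpud1 in knockouts (147), which was at rank 10 in controls (61.0). Differences between neighbours in this order were not tested. In the authors' deposited table, which held 33 of the 34 genes, 6 were higher at an adjusted p below 0.05, against 7.1% of its 22441 genes (17.8% in either direction), and 0 were lower. In the authors' deposited table these were Calr3, Hspe1, Hsp90ab1, Hsph1, Hspd1 and Hspa8, the genes DESeq2 also called here.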

How the data were processed

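The authors deposited raw read counts, whole numbers per Ensembl gene, for all 6 libraries. Per the submitters' processing notes, reads were aligned with STAR to mm39. How reads were assigned to genes, by strand or between near copies, is not stated in the labels, so counts of Hspa1a and Hspa1b, of genes with processed pseudogenes and of the 11 members whose exons overlap another gene are uncertain. The authors' deposited DESeq2 table, per the file headers, gives log2 fold changes, a mean normalized signal, a Wald score, and p-values with their adjusted values. Its sign matched that of the counts for 33 of 33 members.

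After filterByExpr and TMM scaling, edgeR's quasi-likelihood test was run with genotype as its only term (edgeR 4.0.16, R 4.3.3, robust, two-sided). P-values were adjusted by Benjamini-Hochberg over all 17901 genes, with a threshold of 0.05. The SE is the log2 fold change divided by the square root of the test's F. Levels are CPM on TMM-adjusted totals, and log2 CPM used a prior count of 2. Alternatives tried were other scalings (RLE, upper quartile), other filters (none, or 1 CPM in 3 samples), DESeq2 1.42.0, limma voom 3.58.1, each library left out, the sample number as a block and an adjusted p below 0.1. The sum of Hspa1a and Hspa1b was added after the data were seen. The edgeR step was tested on simulated data with the same spread in both groups. In these data the median SD of log2 CPM over all genes was 0.578 in controls and 0.222 in knockouts. The simulation therefore does not check the calls under that unequal spread. The members, lists and motifs were chosen with earlier results of these data known. Named genes were Keap1, Nqo1, all members, and from each pathway list at most 4 that passed, or else the 2 with the smallest p. The neighbours of Calr3 were chosen later. Symbols came from a table that named 52073 of the 56980 identifiers, and Ero1a and Ero1b were matched through RefSeq synonyms. Promoter windows are RefSeq's in GRCm38.p6 and exon lengths GENCODE M21's, an earlier build than mm39, so no coordinate was joined to the counts.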

Additional observations from a re-analysis of the deposited data

How the results depend on the processing

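The edgeR count of 771 changed genes was 465 without the filter, 3117 at an adjusted p below 0.1, 4642 by DESeq2 and 0 to 3209 with each library left out. The count of 2 changed members was 1 without the filter, 5 at an adjusted p below 0.1, 6 by DESeq2 and 0 to 8 with each library left out. With the sample number as a replicate block the counts were 0 genes and 0 members, with 4026 genes and 8 members at an unadjusted p below 0.05. Same-numbered samples did not deviate together (correlations 0.0176, 1.20e-04 and 0.0507), so the numbers were not taken as pairs. The median of 0.27 for the heat shock genes was 0.83 by limma voom, 0.83 with the block and 0.21 to 0.81 with each library left out, and that of 0.03 for the endoplasmic reticulum genes moved by less than its spread between libraries (-0.091 to 0.16 with each library left out). Without the filter the median of all genes shifted by -0.22. Among single members, signs turned as follows. Hspa1b was 0.024 without the filter, 1.24 by limma voom, 1.11 with the block, 0.081 when summed with Hspa1a and -0.57 to 1.87 with each library left out. Canx was -6.18e-04 under RLE scaling and -6.19e-04 by DESeq2, and Pdia6 was -0.013 by both and -0.0035 under the filter of 1 CPM in 3 samples. With each library left out, signs also turned for Hsp90aa1 (-0.78 to 0.60), Hspb1 (-0.26 to 2.17), Hspb8 (-0.18 to 0.81), Hsp90b1 (-0.12 to 0.048), Hyou1 (-0.15 to 0.058), Sdf2l1 (-0.42 to 0.10), Canx (-0.060 to 0.11), Pdia3 (-0.082 to 0.16), Pdia4 (-0.039 to 0.55), Pdia6 (-0.14 to 0.21), Edem1 (-0.029 to 0.34) and Creld2 (-0.12 to 0.41). The cause was not tested.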
